A study of Macaca mulatta with 13 samples.

Results

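The BCL2 family decides whether a cell keeps or loses the outer membrane of its mitochondria, the committing step of intrinsic apoptosis. The genes BCL2, BCL2L1, MCL1, BCL2A1, BAX, BAK1, BCL2L11 and BBC3, were taken by symbol, and all 8 were found among the 34628 genes of a single-cell RNA data set of rhesus macaque colon leukocytes. The rule uses symbols and no threshold on a measured value, and it was written with earlier results of these data known. The animals had either received an allogeneic transplant of blood-forming cells and developed acute graft-versus-host disease (GVHD, an attack of donor T cells on recipient tissue), or had never been transplanted.

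Per the labels, the libraries comprise 4 of host cells, 2 of donor cells, 3 of host and donor cells together and 4 of healthy controls. Each came from colon leukocytes that were thawed, viable, positive for CD45 and negative for the CD45 label called IVas, and the host and donor fractions of 2 GVHD samples were parted by the macaque MHC class I molecule MAMU-A001. The labels state no age or conditioning. Cell barcodes end in a number that marks the library, but the sources used here do not tie these numbers to the labels, so no GVHD, host or donor library was set against a healthy control, no p-value is given, and libraries are called by their number. Differences below are between kinds of cell inside the same library unless stated. Since 13 libraries came from 8 colons, libraries are not separate animals throughout.

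The survival proteins BCL2, BCL-XL (made by BCL2L1), MCL1 and BFL-1 (made by BCL2A1) hold the effectors BAX and BAK1 in check. BH3-only proteins such as BIM (made by BCL2L11) and PUMA (made by BBC3) bind the survival proteins and so release the effectors, which then open pores and let cytochrome c escape. Lymphocytes are known to lean on different survival members at different stages: naive cells on BCL2, activated cells on BCL2A1 and BCL-XL, and plasma cells on MCL1.

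The authors kept 20606 cells, with a median of 3412 unique molecular identifiers (UMIs, each marking 1 captured RNA molecule). Libraries 4 and 6 shared 5323 barcodes and were counted once by leaving out library 4, which left 20567 cells in 12 libraries. Libraries 1 to 7 formed one set by the barcodes they shared, and libraries 8 to 13 another. Kits of versions 2 and 3 were used in unstated libraries, so kit, animal and treatment cannot be told apart between the sets.

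Cells were sorted into classes by genes outside the family. T cells had at least 3 UMIs of CD3D, CD3E and CD3G, B cells had at least 2 UMIs of MS4A1 and CD79A, and plasma cells gave at least 1% of their UMIs to JCHAIN, which links antibody chains. These gates held 1241 plasma cells, 3780 B cells and 11234 T cells, with median depths of 9506, 3337 and 3102 UMIs. A further 2549 cells passed more than 1 gate and were left out. As CPM, a gene's UMIs scaled to 1000000 UMIs of the same cells, 6 other T cell markers summed to 16.4 in plasma cells, 198 in B cells and 1953 in T cells. A sum of 6 other plasma markers was 4601 CPM in plasma cells, 398 in B cells and 89.9 in T cells, and a sum of 6 other B markers was 85.1, 1923 and 22.4 CPM in plasma, B and T cells.

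In kept cells MCL1 was read 35455 times, BCL2A1 29696 times, BAX 16353 times, BCL2 7370 times, BCL2L11 3605 times and BCL2L1 1182 times. BAK1, with 565 UMIs, and BBC3, with 50, averaged under 5 CPM over the T, B and plasma classes and are given by level, not counted among the 6 measured members. Because reads start at the 3′ end and depend on how that end is annotated, no order of level between different genes is drawn from these counts.

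Plasma cells stood apart from both other lymphocyte classes by having almost no BCL2A1 RNA. Plasma cells had 10.6, 1.76, 0.748, 28.3 and 1.51 CPM of BCL2A1 in libraries 8, 10, 11, 12 and 13, against a lowest value of 230.1, a median of 359 and a highest of 473 CPM in the T cells of 10 libraries. In B cells BCL2A1 was at 439.8, 361.6, 533.5, 769.7 and 267.1 CPM in libraries 2, 3, 8, 9 and 11. No plasma library came near any B or T library, but the share of all genes without overlap was not computed. Pooled, the gene was at 9.02 CPM in plasma cells (95% Poisson interval 7.48 to 10.8), at 483 CPM in B cells (472 to 493) and at 369 CPM in T cells (363 to 374). All intervals here cover counting error only and not the spread between animals.

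In library 12, the highest of the 5, that low plasma level rested mostly on 1 droplet. Of the 83 BCL2A1 UMIs in plasma cells of library 12, 78 lay in 1 cell. Leaving out the 2 cells of that library with at least 5 UMIs of myeloid markers left 4 UMIs, or 1.39 CPM. In library 8 the 19 UMIs lay in 15 of 171 plasma cells, at most 2 in a cell, and all 19 remained after that step. With each cell thinned to 1500 UMIs, 0.645% of plasma cells had a BCL2A1 UMI (binomial interval 0.279% to 1.27%), against 39.95% of B cells and 34.0% of T cells. Without thinning the shares were 2.98% of plasma cells, 60.4% of B cells and 53.8% of T cells. Cells with epithelial markers, which should lack the gene, had a share of 1.84% after thinning (0.381% to 5.28%, 163 cells, median depth 2825 UMIs). Without thinning it was 2.45%, below the 2.98% of plasma cells. The plasma share is thus near this background and is not read as expression, but expression is not excluded. Of the epithelial cells 122 came from library 1, which is not among the plasma libraries above, so their background may differ.

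**Figure D1:**
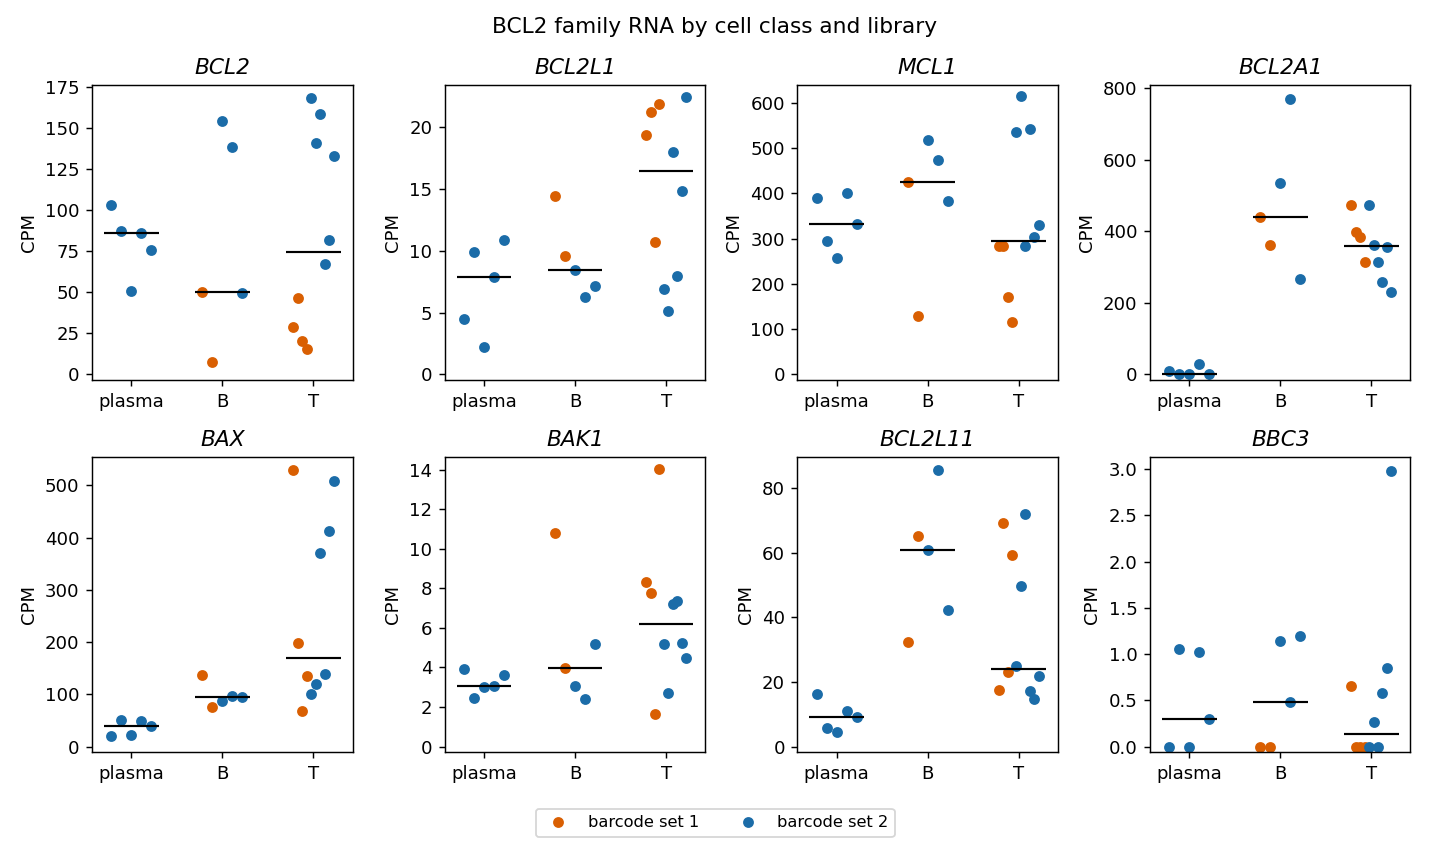
Level of each of the 8 genes in plasma, B and T cells, in CPM, with 1 point per library of at least 50 cells and a bar at the median. BCL2A1 in plasma cells lies between 0.748 and 28.3 CPM, below every B and T library, and the share of all genes that lie so was not computed. BCL2 and MCL1 in plasma cells lie within the range of the T libraries on these totals, most of which 6 genes hold in plasma cells.

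Ratios taken inside a library gave the same picture for BCL2A1 and showed which other members followed. A log2 ratio compares the summed UMIs of 2 classes over their totals with 0.5 UMI added, and a gene is called higher or lower where its ratio has 1 sign in every library with at least 50 cells of both classes. Between plasma and T cells, in 5 libraries, all of the second barcode set, 5.58% of 7756 measured genes were higher and 77.1% lower in every library, with a median log2 ratio of -1.58 over all genes. Against that, 4 of the 6 measured members were lower in every library and 0 were higher, a share near the background.

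The ratios differed widely in size. BCL2A1 had a median log2 ratio of -7.12, and BAX, the effector, one of -2.86, with a range of -3.69 to -2.30, both beyond the median of all genes. BCL2L11 at -1.27 and BCL2L1 at -0.98 were lower in 5 of 5 libraries but less so than the typical gene. BCL2 had a median of -0.71 and was lower in 4 of 5, and MCL1 had 0.00, with a range of -1.08 to 0.40, and was higher in 3 of 5. With cells thinned to 1500 UMIs, which brought in 9 libraries, 2 members were lower in every library, and with totals without named antibody genes 2 members were of 1 sign.

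The typical gene was lower in plasma cells while 6 genes took most of their UMIs. These genes, with over 1% of plasma UMIs each, together held 60.8% of all plasma UMIs, against 1.40% in B cells and 0.183% in T cells. The files give no symbol for 3 of them, with 32.55% of plasma UMIs, and the 25 genes with an antibody gene symbol or JCHAIN held 28.9%. Leaving the 6 genes out of the totals, a scaling chosen after seeing the data, gave medians of 1.32 for MCL1, 0.65 for BCL2, 0.32 for BCL2L1 and 0.06 for BCL2L11, and of -5.80 for BCL2A1 and -1.56 for BAX. With the median of all genes set to 0, the 6 values were 1.59, 0.78, 0.63, 0.32, -5.53 and -1.20. So BCL2A1 and BAX were lower in plasma than in T cells under these 3 scalings, while BCL2, BCL2L1 and BCL2L11 changed sign with the scaling and MCL1 went from level to higher.

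Shares within the family do not depend on the cell's total, but a share also goes up where the other members go down. MCL1 made up 68.9% of the UMIs of the 8 genes in plasma cells (67.7% to 70.0%), 31.3% in B cells and 31.0% in T cells. In libraries its plasma share lay between 64.9% and 75.55%, above every B library (19.7% to 45.0%) and every T library (17.2% to 52.0%). BCL2 made up 16.1% in plasma cells, 7.12% in B cells and 6.20% in T cells. Its plasma libraries (14.65% to 19.2%) also lay above every B library (up to 11.3%) and T library (up to 12.9%). All these plasma libraries were of the second barcode set. In the first set BCL2 was low in the few plasma cells. The 45 cells of library 2 gave 2 UMIs (4.29 CPM), the 33 of library 5 gave 5 (10.9 CPM) and the 18 of library 3 gave 0. So the high BCL2 share is shown for the second set only. BCL2A1 made up 1.92% in plasma cells, 45.8% in B cells and 32.6% in T cells. Without cells that had at least 5 UMIs of myeloid markers, the plasma shares were 0.677% for BCL2A1, 69.8% for MCL1 and 16.4% for BCL2. The higher MCL1 share stands beside a plasma over T log2 ratio for MCL1 itself of 0.00 on all UMIs. That ratio was 1.32 without the 6 most abundant plasma genes and 1.59 with the median of all genes set to 0. BCL2A1 and BAX were lower in plasma cells under each of these scalings.

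**Figure D2:**
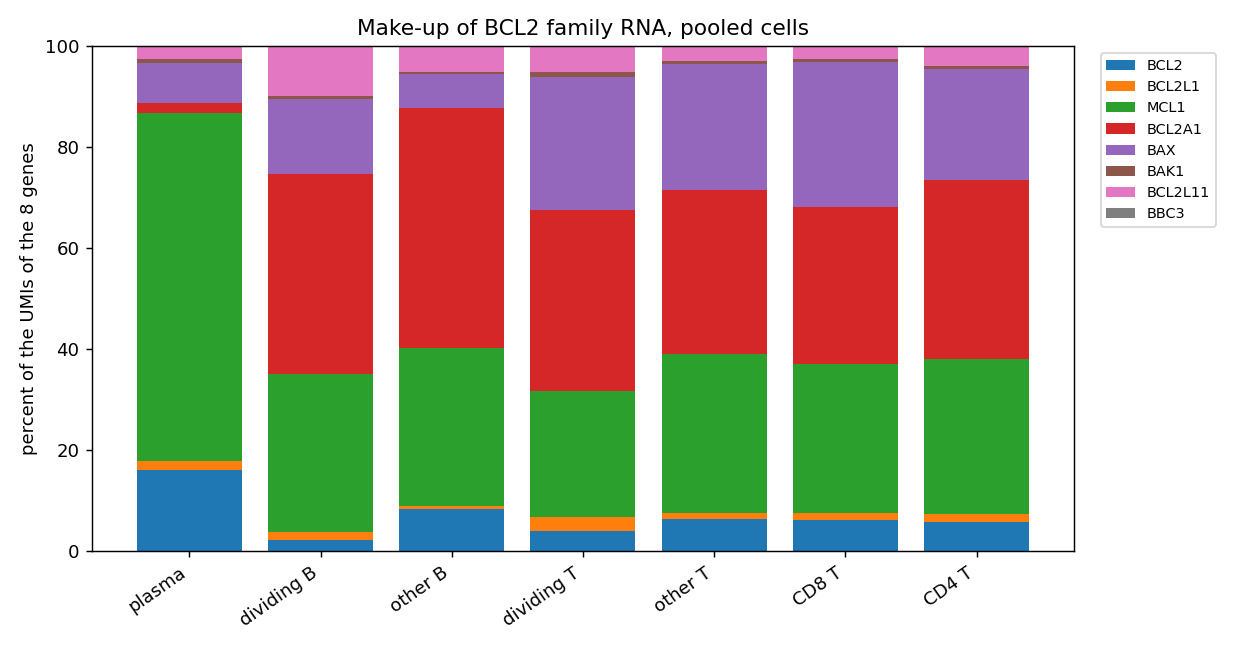
Percent of the UMIs of the 8 genes that each gene holds, in pooled cells of 7 classes. MCL1 fills 68.9% of the plasma bar, BCL2A1 shrinks there to 1.92% (0.677% without cells rich in myeloid markers), and BCL2 is thin in dividing B cells.

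Of the effectors and BH3-only genes, BAX was the one lower in plasma than in T cells under the 3 scalings above. It was at 20.1, 51.1, 21.7, 49.15 and 39.2 CPM in plasma cells of libraries 8, 10, 11, 12 and 13, against 99.9, 371, 140, 412 and 508 CPM in T cells of the same libraries. On these totals the groups do not overlap. Without the 6 most abundant plasma genes in the totals, pooled plasma cells had 96.3 CPM, so the lack of overlap may not hold there. The share of all genes without overlap was not computed. BAK1 was at 3.50 CPM in plasma cells (2.57 to 4.66), 3.66 CPM in B cells and 6.75 CPM in T cells. BCL2L11 was at 16.2, 5.64, 4.49, 10.9 and 9.04 CPM in the same plasma libraries, against 24.8, 72.0, 17.2, 14.7 and 21.9 CPM in their T cells. Here the plasma cells of library 8 lay above the T cells of library 12, though inside each library plasma cells were lower, and that difference changes sign with the scaling as given above. BBC3 had 8 UMIs in plasma cells, 8 in B cells and 21 in T cells, or 0.596 CPM in plasma, 0.496 in B and 0.523 in T cells with intervals that overlap, so no difference was detectable at this depth.

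With all UMIs as the total, MCL1 and BCL2 levels of plasma cells lay within the range of the T cell libraries. Without the 6 most abundant plasma genes in the totals, pooled plasma cells had 826 CPM of MCL1 and 193.5 CPM of BCL2. The highest T libraries had 614 and 168 CPM on all UMIs, so this placing depends on the scaling. MCL1 was at 390.0, 294, 257, 401 and 332 CPM in plasma cells of libraries 8, 10, 11, 12 and 13, against 535, 284, 542, 303.5 and 331 CPM in their T cells. BCL2 was at 103, 87.0, 50.9, 86.0 and 75.6 CPM in the plasma cells, against 168, 158, 67.2, 81.7 and 133 CPM in the T cells. After thinning, a BCL2 UMI was found in 11.7% of plasma cells, 10.8% of B cells and 10.2% of T cells, and in 1.23% of cells with epithelial markers. These shares pool the barcode sets in unlike proportions. BCL2 in T libraries had a median of 24.8 CPM in the first set and 137 CPM in the second. Inside libraries, on all UMIs, BCL2 was lower in plasma than in T cells in 4 of 5. The near-equal pooled shares are thus not read as equal levels.

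Against B cells, plasma cells could be set in libraries 8 and 11 alone, where 5.69% of genes were higher and 88.5% lower in both. Of the measured members 5 of 6 were lower and 0 higher, which is no more than the background. BCL2A1 had 19 UMIs in plasma cells of library 8, a log2 ratio of -5.61, and 1 UMI in library 11, a ratio without added counts of -8.48 with a counting interval of -13.79 to -6.00. BAX had ratios of -2.09 and -2.12 and BCL2L11 of -1.88 and -3.12. Leaving the 6 most abundant plasma genes out of the totals gave 2 members higher and 3 lower, and setting the median of all genes to 0 gave 3 higher and 3 lower. The BAX median was then -0.71 without the 6 genes and -0.37 with centring, the BCL2L11 median -1.11 and -0.77, and the BCL2A1 median -5.36 and -5.02. MCL1 and BCL2L1, lower as first scaled, were above 0 under both.

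A list of 42 other genes of the death pathway was read beside the family, of which 39 were found by symbol and 30 were measured. Between plasma and T cells 21 of the 30 were lower and 1 higher in every library, with a list median of -1.08 beside -1.58 for all genes. The BH3-only gene PMAIP1, whose protein NOXA binds MCL1 and BFL-1, was at 17.6 CPM in plasma cells and 255 CPM in T cells, a median log2 ratio of -4.17. TNFSF10, the death ligand TRAIL, was at 1.94 CPM in plasma cells and 60.1 CPM in T cells, a ratio of -6.61. APAF1, the scaffold that activates caspase 9, had a ratio of -2.13 and CASP8, the initiator of death receptor signalling, one of -1.97. The 16 genes of the list that were lower in every library by a median of at least 1 included some against death and some for it. BIRC2, an inhibitor of apoptosis, had a ratio of -1.98, XIAP, which blocks caspases, one of -1.08, and BAG1, a co-chaperone that binds BCL2, one of -1.19. The caspases CASP2 and CASP9 had -2.13 and -1.63, the BH3-only gene BID -1.48 and the family member BCL2L13 -1.59. Of genes of mitochondrial release, VDAC1 had -2.02, CYCS, which encodes cytochrome c, -1.48, VDAC2 -1.10 and HTRA2 -1.08, and BCAP31 of the endoplasmic reticulum had -1.02. Of the 16, XIAP, BAG1, BID, CYCS, VDAC2, HTRA2 and BCAP31 were less lowered than the typical gene at -1.58. The share of all genes lower by at least 1 was not computed. TMBIM6, an inhibitor of cell death in the endoplasmic reticulum, was the 1 gene of the list higher in every library, at 1003 CPM in plasma cells and 402 CPM in T cells, a ratio of 1.03.

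Against B cells 27 of the 30 were lower and 2 higher in both libraries, with a list median of -1.41 beside -1.74 for all genes. HSPA5, the main chaperone of the endoplasmic reticulum, was higher by a ratio of 1.31, at 1041 CPM in plasma cells and 550.5 CPM in B cells. By a median of at least 1 in size 19 genes were lower. The share of all genes lower by at least 1 was not computed. Of the 19, BCL2L12, HTRA2, DIABLO, BAD, CYCS and BAG1 were less lowered than the typical gene at -1.74. BIK, a BH3-only gene, was at 23.8 CPM in plasma cells and 211 CPM in B cells, a ratio of -2.77, and BID had -2.89, PMAIP1 -2.72, BCL2L13 -2.71, BCL2L12 -1.51 and BAD -1.30. BIRC2 had -2.45, CASP8 -1.94, CASP9 -1.87, VDAC1 -1.88, VDAC2 -1.76, HTRA2 -1.46, DIABLO -1.36, CYCS -1.25 and BAG1 -1.18. APAF1, CASP2, BIRC5 and TNFSF10 were the others, each under 3 CPM in plasma cells.

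B cells and T cells differed less. In 5 libraries 24.7% of genes were higher and 15.2% lower in B than in T cells in every library, and 0 of the 6 measured members were. BCL2L11 came nearest. It was at 65.1, 60.7, 85.5 and 42.2 CPM in B cells of libraries 3, 8, 9 and 11, against 23.0, 24.8, 49.8 and 17.2 CPM in their T cells. In the 65 B cells of library 2 it was at 32.4 CPM, from 9 UMIs, against 69.1 CPM in its T cells. Those B cells carried plasma markers at 1247 CPM, against 251 to 448 CPM in B cells of libraries 3, 8, 9 and 11. The part of this in the level was not tested. The median log2 ratio was 1.28, with 4 of 5 libraries higher. Without library 2, 3 members were of 1 sign in every library.

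For BAX the pooled levels and the ratios inside libraries differed. The pooled level was 88.9 CPM in B cells and 283 CPM in T cells, but the libraries that hold most B cells are those in which T cells had little BAX. Inside libraries 2, 3, 8, 9 and 11 it was at 137, 75.7, 86.7, 96.0 and 95.5 CPM in B cells, against 198, 69.1, 99.9, 120 and 140 CPM in T cells, a median log2 ratio of -0.32 with 4 of 5 lower. BCL2A1 had a median of 0.15, BCL2 and BCL2L1 -0.12 each, and MCL1 -0.37. None of these held 1 sign in all 5 libraries.

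Of the 30 measured genes of the wider list 9 were higher and 6 lower in B than in T cells in every library, with a list median of 0.36 beside 0.20 for all genes. BID, which links death receptors to mitochondria, was at 184 CPM in B cells and 59.1 CPM in T cells, a median log2 ratio of 1.61. BIRC5, which encodes survivin and is known as a gene of dividing cells, had 4.60, BCL2L12, a family relative, 1.01 and TNFRSF10B, a receptor of TRAIL, 1.31, while TNFSF10 had -5.01, at 2.11 CPM in B cells and 60.1 CPM in T cells.

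The clearest pattern inside a class was in B cells that were dividing, taken as those with at least 2 UMIs of MKI67, TOP2A, RRM2, TYMS and CCNA2. BCL2 was at 2.85, 35.8, 33.9 and 0 CPM in dividing B cells of libraries 3, 8, 9 and 11, against 11.5, 177, 193 and 72.5 CPM in the other B cells of these libraries. Dividing cells were lower in 4 of 4. In library 11 they gave 0 UMIs, so with 3 UMIs as the floor for the library BCL2 was at least 19.4-fold lower, and the other 3 log2 ratios were -1.95, -2.26 and -2.50.

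BCL2A1 and MCL1 were lower in dividing B cells as well, by less. BCL2A1 was at 203, 191, 397 and 171 CPM in dividing cells of libraries 3, 8, 9 and 11, against 490.5, 599, 966.5 and 312 CPM in other B cells, a median log2 ratio of -1.28. MCL1 was at 104.5, 303.3, 290.1 and 279 CPM in dividing cells, against 148, 558, 572 and 432 CPM in other B cells, a median of -0.75. In the other direction BCL2L1 had a median of 0.64 and BAX one of 0.18, with a range of 0.11 to 0.24. BCL2L11 had 0.15 and was higher in 3 of 4.

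Thus 3 measured members were lower and 2 higher in every one of the 4 libraries, where 17.9% of genes were lower and 33.4% higher and the median of all genes was 0.16. The BAX ratio lay close to that median. Dividing B cells were 1.70 to 2.90 times as deep as other B cells by median UMIs, and with every cell thinned to 1500 UMIs, which left 3 libraries, 3 members were of 1 sign. After thinning 17 of 764 dividing and 392 of 3016 other B cells had a BCL2 UMI, and without thinning 5.76% and 23.4% did. These shares are pooled, and 468 of the dividing and 982 of the other B cells came from library 3, where BCL2 was low in both.

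**Figure D3:**
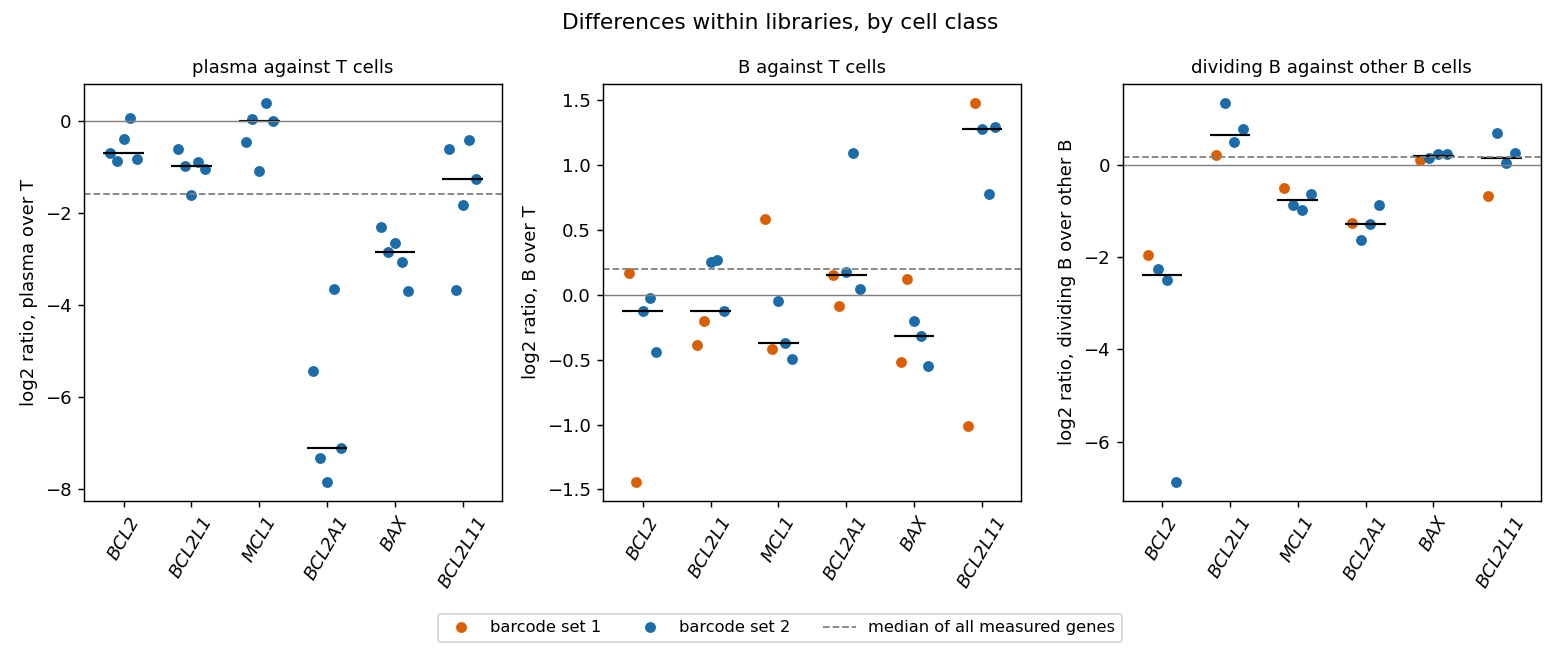
Log2 ratio inside each library for plasma over T cells, B over T cells and dividing over other B cells, 1 point per library, with a bar at the median of the libraries and a dashed line at the median of all measured genes. BCL2A1 sits lowest in plasma cells and BCL2 lowest in dividing B cells, where the point at -6.87 is library 11 with 0 UMIs and depends on the added count.

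In the wider list 9 genes were higher and 6 lower in dividing B cells in every library, with a median of 0.10 beside 0.16. BIRC5 had a median of 5.61, CASP2 1.64, BCL2L12 1.16 and BID 1.03, while CASP10, an initiator caspase of death receptors, had -2.41.

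In T cells the levels varied widely between libraries. BCL2 was at 29.0, 46.6, 20.55 and 15.7 CPM in T cells of libraries 1, 2, 3 and 5, the first barcode set, and at 168, 141, 158, 67.2, 81.7 and 133 CPM in those of libraries 8 to 13. The sets do not overlap. Without overlap 19.8% of all genes were lower and 4.74% higher in the first set, so 1 of 8 members lower is not more than the background.

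BAX in T cells did not follow the sets. It was at 529 CPM in library 1 and at 371, 412 and 508 CPM in libraries 10, 12 and 13, against 69.1 to 198 CPM in the other 6. These 4 libraries were picked by that level, so their lying above the other 6 follows from the choice and is not a result. MCL1 ran from 117 CPM in library 5 to 614 CPM in library 9, with 535 and 542 CPM in libraries 8 and 11 and 331 CPM or less elsewhere. BCL2A1 spanned 230.1 to 473 CPM and BCL2L11 14.7 to 72.0 CPM. T cells of libraries 1, 5 and 12 also carried myeloid markers at 3845, 1817 and 1707 CPM, against 2.44 to 9.24 CPM in the other 7, and the part of these in the levels was not tested.

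**Figure D4:**
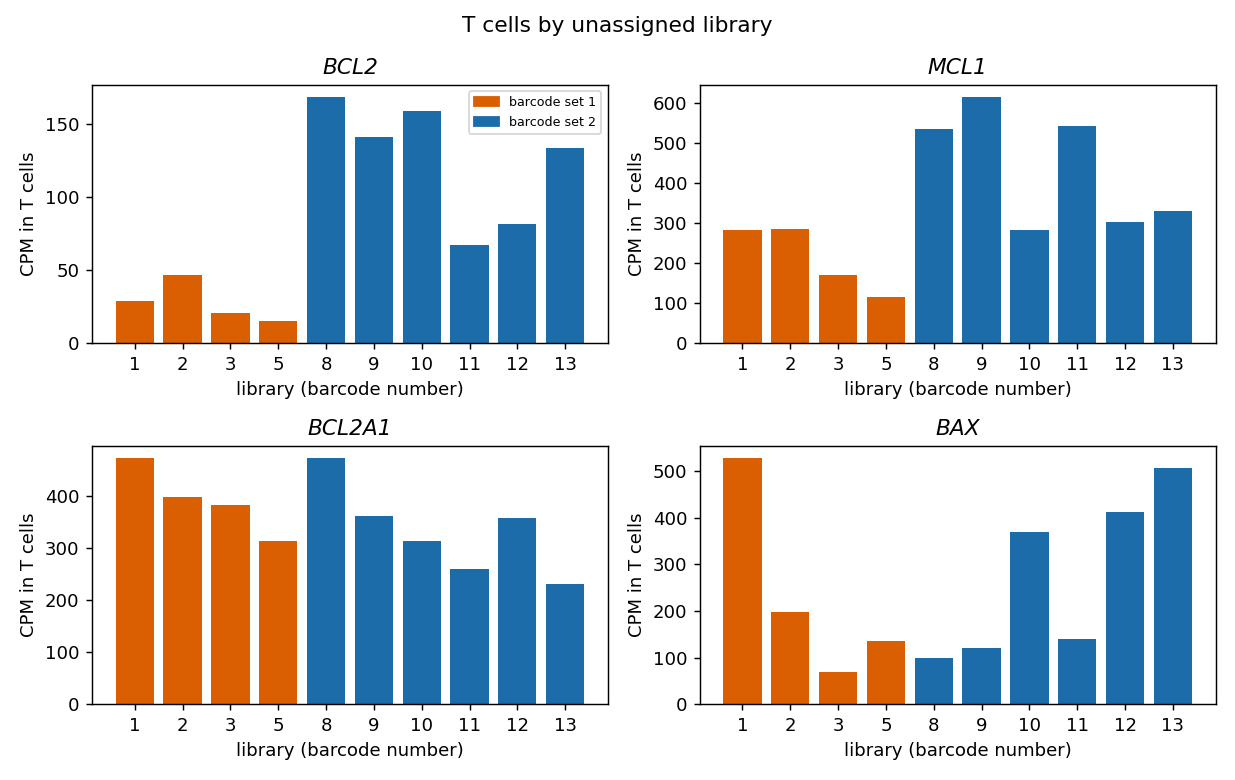
Level of BCL2, MCL1, BCL2A1 and BAX in T cells of 10 libraries, in CPM, coloured by barcode set. BCL2 is lower in every library of the first set, while BAX is high in libraries 1, 10, 12 and 13, which come from both sets.

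CD8 T cells had less BCL2 than CD4 T cells in each of 8 libraries. CD8 cells had a CD8A or CD8B UMI and no CD4 UMI, and CD4 cells the reverse. BCL2 was at 28.8, 36.6, 16.8, 134, 104, 56.0, 78.3 and 140.0 CPM in CD8 cells of libraries 1, 2, 5, 8, 9, 11, 12 and 13, against 30.1, 50.4, 21.1, 198, 177, 70.9, 116 and 154 CPM in their CD4 cells. The 2 ranges overlap, and the difference shows inside libraries. The log2 ratio had a median of -0.41 and a range of -0.76 to -0.06. Some of these signs rest on few UMIs, and no counting interval is given for them. CD8 and CD4 cells had 14 and 9 BCL2 UMIs in library 5, and 38 and 52 in library 1, where the ratio was -0.06. BCL2 was still the member of 1 sign. That made 1 of 6 measured members lower in every library, where 4.2% of genes were lower and 1.59% higher. At a limit of 20 cells library 3 enters with 23 CD8 cells, at 44.4 CPM in CD8 and 20.8 CPM in CD4 cells, and the call is lost.

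BCL2L11 leaned the same way, lower in CD8 cells in 7 of 8 libraries with a median log2 ratio of -0.72. In the 3 libraries of the first set its ratios were 0.14, -0.38 and -0.37, and in 4 of the 5 libraries of the second set they lay between -2.47 and -1.07. BCL2A1, with a median of -0.22, and BCL2L1, with -0.37, were lower in 7 of 8, while MCL1 at -0.01 and BAX at 0.01 were split 4 to 4. Myeloid markers summed to up to 1758 CPM in CD8 cells of a library and up to 8499 CPM in CD4 cells. Without cells that had at least 5 UMIs of these markers, a step added after seeing the data, the BCL2 median was -0.47 and the BCL2A1 median -0.13.

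No member held 1 sign in every library between T cells with and without granzyme B, a killer protease. T cells with at least 3 UMIs of its gene GZMB were set against those with none in 8 libraries, where 6.03% of genes were higher and 3.21% lower in every library and 0 of 6 members were. Median ratios lay between -0.11 for BCL2A1 and 0.50 for BCL2L1. In the wider list 1 gene was higher and 2 lower in GZMB cells.

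**Figure D5:**
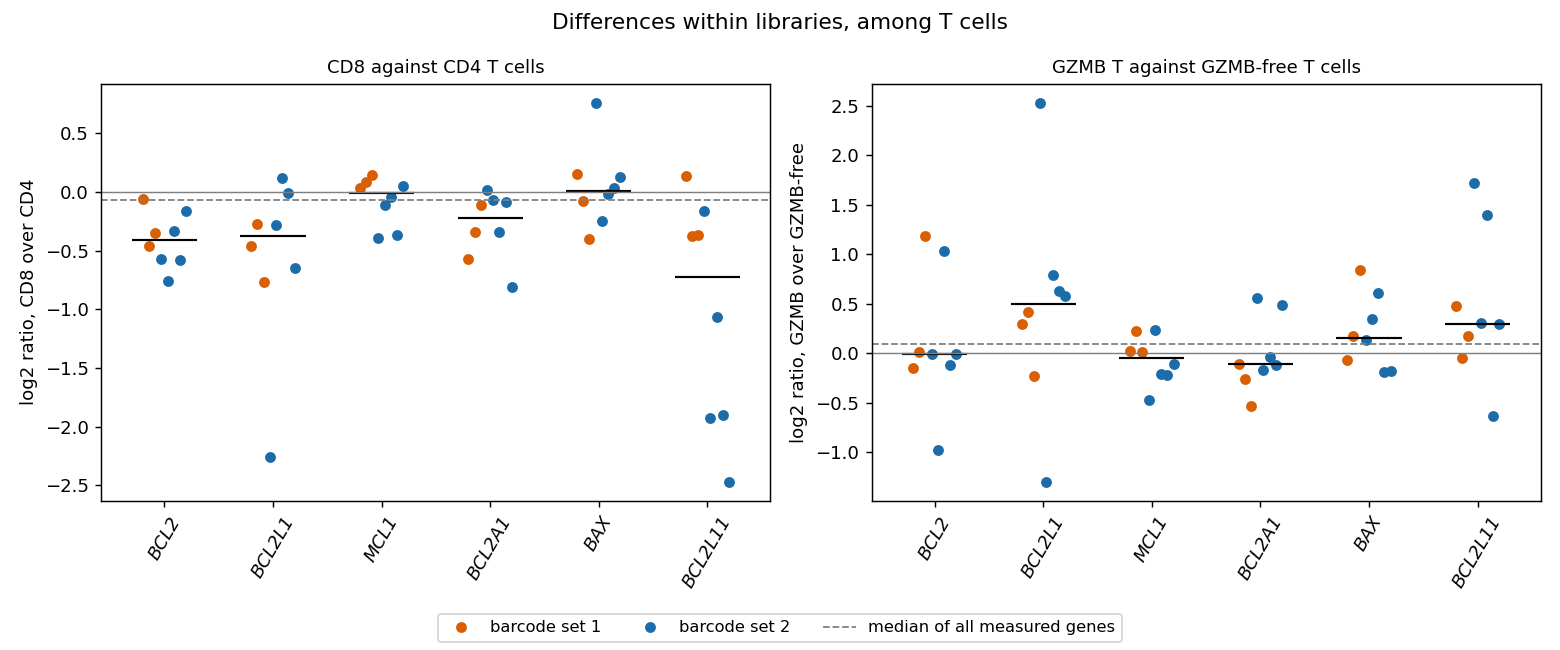
Log2 ratio inside each library for CD8 over CD4 T cells and GZMB over GZMB-free T cells, 1 point per library, with a bar at the median of the libraries and a dashed line at the median of all measured genes. BCL2 lies below 0 in all 8 libraries of the CD8 panel, from -0.76 to -0.06, and points of the GZMB panel fall on both sides of 0 for every member.

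Dividing T cells were numerous enough in libraries 2 and 5, where 45.2% of genes were higher and 22.3% lower in both. BCL2L1, at 31.3 and 23.3 CPM in dividing and 18.9 and 21.5 CPM in other T cells, and BAX, at 238 and 144 CPM in dividing and 190 and 133 CPM in other T cells, were higher. BCL2L11, MCL1, BCL2A1 and BCL2 were lower, with median ratios of -0.63, -0.45, -0.36 and -0.20. With the median of all genes, 0.21, set to 0, these 4 remained lower and no member was higher in both libraries, with medians of 0.23 for BCL2L1 and 0.01 for BAX. Dividing T cells were 1.90 to 2.44 times as deep as other T cells by median UMIs, and thinning left 1 library, with 5 members higher and 1 lower. At a limit of 20 cells, which brings in 3 more libraries, 0 members held 1 sign in all 5. BCL2 was at 37.3 and 14.8 CPM in dividing T cells of libraries 2 and 5, against 48.7 and 15.9 CPM in other T cells. In the wider list 14 genes were higher and 8 lower in both libraries, with a list median of 0.20. BIRC5 had a median ratio of 5.58, CASP2 1.65, BCL2L12 1.56, BAG1 1.48 and FADD, the adaptor of death receptors, 1.27, while CASP10 had -1.42 and XIAP -1.15.

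The genes most like each member were found by Pearson's r of log2(CPM + 5) over 20 sums of T, B or plasma cells in a library. These sums share libraries and depth, and the values are a description. BAX was followed most closely by AEN (0.963), FLOT1 (0.939) and ARL2BP (0.922). BCL2A1 was nearest to TAGAP (0.965), U2AF1 (0.959) and COMMD6 (0.958), and BCL2L11 to TMEM97 (0.892), MTFR2 (0.887) and STMN1 (0.883). BCL2 was nearest to SRRM2 (0.904), PM20D2 (0.903) and CDV3 (0.899), MCL1 to PM20D2 (0.910), FTH1 (0.892) and TARSL2 (0.887), and BCL2L1 to PLP2 (0.883), LGALS3BP (0.873) and GSTP1 (0.867).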

How the data were processed

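The authors deposited raw UMI counts per gene and barcode. Per the file headers they come from Cell Ranger 3.1.0, and the submitters' processing notes add Seurat 3.1 with no role. The cells the authors kept were taken from the column names of a further matrix, whose values were not used. The sources used here give no genome build. Library totals ran from 3128386 to 19655788 UMIs over all barcodes.

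Counts were summed per class and library in Python 3.11.15 with numpy 2.4.6 and scipy 1.17.1. Measured genes average at least 5 CPM over plasma, B and T cells, gate genes left out. No doublets were called. Some comparisons within the B and T cell classes are not reported here. Ratios were checked on simulated counts. Poisson and binomial intervals are exact, at 95%. No group of the labels could be compared, and libraries served as unassigned samples. All members were named, and wider-list genes where the median was at least 1 in size with 1 sign in every library. Members, classes and lists were chosen with earlier results of these data known.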

Additional observations from a re-analysis of the deposited data

Results flagged for a closer look

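Myeloid cells lie outside the comparisons of plasma, B and T cells, and pooled over libraries 3 members stood above all of those classes there. The 183 cells with at least 5 UMIs of 6 myeloid markers and no T, B or plasma gate had BCL2A1 at 1584 CPM (1528 to 1642), MCL1 at 468 CPM (438 to 500) and BCL2L11 at 87.3 CPM (74.5 to 102). Each pooled interval lies above those of plasma, B and T cells. The share of all genes that stand above in the same way was not computed, so the count of 3 is not read as a trait of the family. Library 8 alone had at least 50 such cells, with BCL2A1 at 1263 CPM and MCL1 at 716 CPM, above its plasma, B and T cells. BCL2L11 was not above there, at 57.7 CPM in myeloid cells and 60.7 CPM in B cells, and its highest myeloid levels were 143 and 134 CPM in the 32 and 15 cells of libraries 12 and 13. BCL2 was at 28.2 CPM in myeloid cells, below the other classes.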

How the results depend on the processing

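Counts of measured members with 1 sign in every library were recomputed under each alternative. Of the recomputed counts 167 stayed within 1.5 times the reported one, while 26 did not. Some could not change, because the comparison does not use the library left out. The counts also add both directions. Plasma against T cells went from 0 higher and 4 lower to 2 and 2 without genes over 1% of plasma UMIs. With centring it was 3 and 2, and these are among the 167. So the 167 is not read as a measure of stability. Where no construction shows it, the cause was not tested. No paired analysis was possible between groups of the labels, because no label ties a barcode number to a sample, while the ratios between classes are paired by library throughout.

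Counting cells of several gates in each class gave 2 for plasma against B cells and 2 for dividing T cells, and medians of 0.01 for MCL1 and 0.05 for BCL2L11 (plasma against B) and 0.13 for BCL2L11 (dividing T). Thinning gave 2 for plasma against T, 2 for B against T and 3 for dividing B cells, and medians of 1.56 for BCL2L1 (plasma against B) and 0.31 for BCL2, 0.12 for MCL1 and 0.02 for BCL2A1 (dividing T, 1 library). All barcodes over 500 UMIs gave 1 for B against T and 3 for plasma against B cells. A limit of 20 cells gave 2 for plasma against B, 0 for dividing T, with BCL2L11 at 0.39, and 0 for CD8 T cells. A limit of 100 cells gave 3 for B against T, 2 for CD8 and 1 for GZMB T cells. Totals without named antibody genes gave 2 for plasma against T cells and 0.09 for MCL1 (plasma against B). Totals without genes over 1% of plasma UMIs gave 0.32 for BCL2L1 and 0.06 for BCL2L11 (plasma against T), and 0.22 for BCL2L1 and 0.90 for MCL1 (plasma against B). Centring on the median gene gave 0.63 and 0.32, then 0.56 and 1.24, for the same genes in the same order, and 1 for B against T cells. Stricter gates gave 2 for CD8 T cells. The first barcode set alone gave 1 for B against T, 4 for CD8 and 2 for GZMB T cells, and the second gave 5 for B against T and 2 for CD8 T cells.

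Leaving out 1 library at a time gave 0 to 3 for B against T (3 without library 2, 2 without library 3), 1 to 2 for CD8 (2 without library 1, 8 or 11), 5 to 6 for dividing B, 6 for dividing T, 5 to 6 for plasma against B, 4 to 5 for plasma against T, and 0 for GZMB T cells. BAK1 and BBC3 are limited by depth.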
